A study of Mus musculus with 6 samples.

Results

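The genes examined here are those of B cells, of the plasma cells that B cells become, and of the immunoglobulins that plasma cells secrete. They were taken by symbol from a table of whole lung gene expression in lincRNA-Cox2 knockout and wild type mice. Of 33 symbols, 32 were found, and they stand in 35 of the 20494 rows of the table. The 35 rows are 21 B cell genes, 7 plasma cell genes and 7 immunoglobulin rows. The immunoglobulin rows are Igh, Ighg, Igj and 4 rows named abParts, a label of the UCSC gene set for pieces of antibody genes. No row carries the symbol Ighm, which is not analysed here.

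The study compared lungs of mice without lincRNA-Cox2, a long noncoding RNA transcribed beside the cyclooxygenase gene Ptgs2, with wild type lungs. The 6 libraries, 3 of each genotype, were made from total RNA of snap-frozen lungs of untreated C57BL/6 males aged 4 months. The labels do not say how the knockout allele was made, whether the genotypes were littermates, or that each library came from a mouse of its own. The p-values therefore measure the spread between these libraries, which may be technical. In the authors' deposited table the targeted transcript had means of 311 normalized counts in wild type and 0.666 in knockout (adjusted p = 4.05e-91).

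The table gives a mean of each genotype in normalized counts, that is, counts scaled by the size factor of their library. It adds a log2 fold change shrunken towards 0 by DESeq2, its standard error (SE), a p-value and a p-value adjusted over 16902 rows. Summed over all rows the means came to 3.71e+07 normalized counts in wild type and 3.68e+07 in knockout. A row is called where the authors' adjusted p is under 0.05. A fold or ratio below compares the 2 deposited means, and the shrunken value is named as such.

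B cells carry a membrane antibody that signals through Cd79a and Cd79b, and their identity is held by the transcription factors Ebf1 and Pax5. When they become plasma cells, Irf4, Prdm1 and Xbp1 replace this programme with one for secretion, and antibody transcripts reach very high levels per cell. In lung such cells lie mainly along the airways and in small lymphoid clusters, and B cells also pass through with the blood. A whole lung sample holds all of these, and fewer cells of a type cannot be told apart from less RNA per cell.

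The defining B cell markers Cd79a, Cd79b, Ms4a1 and Pax5 and the plasma cell markers Igj, Mzb1, Tnfrsf17, Sdc1 and Derl3 were above 0 in both group means. Levels between genes were compared per kilobase of exon in GENCODE M21 (mm10). On that scale Cd79b and Cd79a led the B cell genes in wild type, at 1326 and 1152 normalized counts per kilobase, and Tnfrsf13b was lowest at 28.4. Sdc1, at 3138, and Xbp1, at 2073, stood above all B cell genes. Sdc1 (syndecan-1) is also made by epithelium and Xbp1 by many secretory cells. The other plasma cell genes lay between 229 for Mzb1 and 14.7 for Tnfrsf17. Igj had 673 normalized counts per kilobase in wild type and 1459 in knockout, so that in knockout it stood above Cd79a (1006) and Cd79b (1283).

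The promoter of Igj is shown because Igj is the called member with a place of its own in the annotation. Those of Vpreb3 and Blnk are shown because they hold the octamer, the element bound by the Oct factors with which Pou2af1 works. Each run is the 250 bases before the RefSeq start (GRCm38.p6), 5′ to 3′ on the gene's strand, and capitals mark the octamer.
Igj (listed by RefSeq as Jchain, chr5:88527898-88528147, minus strand): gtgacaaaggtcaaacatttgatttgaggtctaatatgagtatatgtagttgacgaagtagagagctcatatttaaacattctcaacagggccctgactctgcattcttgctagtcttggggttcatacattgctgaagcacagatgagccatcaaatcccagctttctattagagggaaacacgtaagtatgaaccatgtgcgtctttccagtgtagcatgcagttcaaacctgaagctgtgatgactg
Vpreb3 (chr10:75948050-75948299, plus strand): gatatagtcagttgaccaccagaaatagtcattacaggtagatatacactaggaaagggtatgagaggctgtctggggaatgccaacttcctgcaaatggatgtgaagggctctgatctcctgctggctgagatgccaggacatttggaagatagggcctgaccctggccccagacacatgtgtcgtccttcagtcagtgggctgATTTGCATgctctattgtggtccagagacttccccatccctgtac
Blnk (chr19:40994222-40994471, minus strand): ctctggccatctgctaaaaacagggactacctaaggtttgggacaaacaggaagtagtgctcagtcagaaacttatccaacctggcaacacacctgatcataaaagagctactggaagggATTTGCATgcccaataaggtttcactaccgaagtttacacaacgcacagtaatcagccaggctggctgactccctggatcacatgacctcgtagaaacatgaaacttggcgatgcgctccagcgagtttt
The octamer was searched as ATGCAAAT and as its reverse complement ATTTGCAT. RefSeq windows were found for 24 of the member symbols, and the octamer was in those of 2, at 45 bases before the start in Vpreb3 and 130 in Blnk. It is in 1.6% of the 32851 windows of this length of all genes. Neither gene was called, and a match describes letters only.

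Most immunoglobulin rows rose in knockout, while no row of the B cell or plasma cell groups passed the test. Igj, also a plasma cell marker, is counted here with the immunoglobulin rows. Of 7 immunoglobulin rows, 5 were called in the authors' deposited table, all higher, and 6 had an unadjusted p under 0.05. Over all tested rows 1.09% were called, 0.592% higher and 0.497% lower, and 4.43% were higher at an unadjusted p under 0.05. Of the 21 B cell genes 0 were called by DESeq2, and 6 had an unadjusted p under 0.05, all with a lower knockout mean, against 4.04% of all tested rows. None of the 6 tested plasma cell genes was called, with 0 at an unadjusted p under 0.05 by DESeq2. The median log2 ratio of the group means was 0.72 over the immunoglobulin rows, -0.12 over the B cell genes and 0.00445 over the plasma cell genes. Over all rows with an adjusted p it was -0.00131. The immunoglobulin rows ran from 1.29-fold to 3.59-fold higher, and of the other 28 rows the highest ratio was 1.12. Whether the 3 groups of rows differ in their change was not tested.

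**Figure D1:**
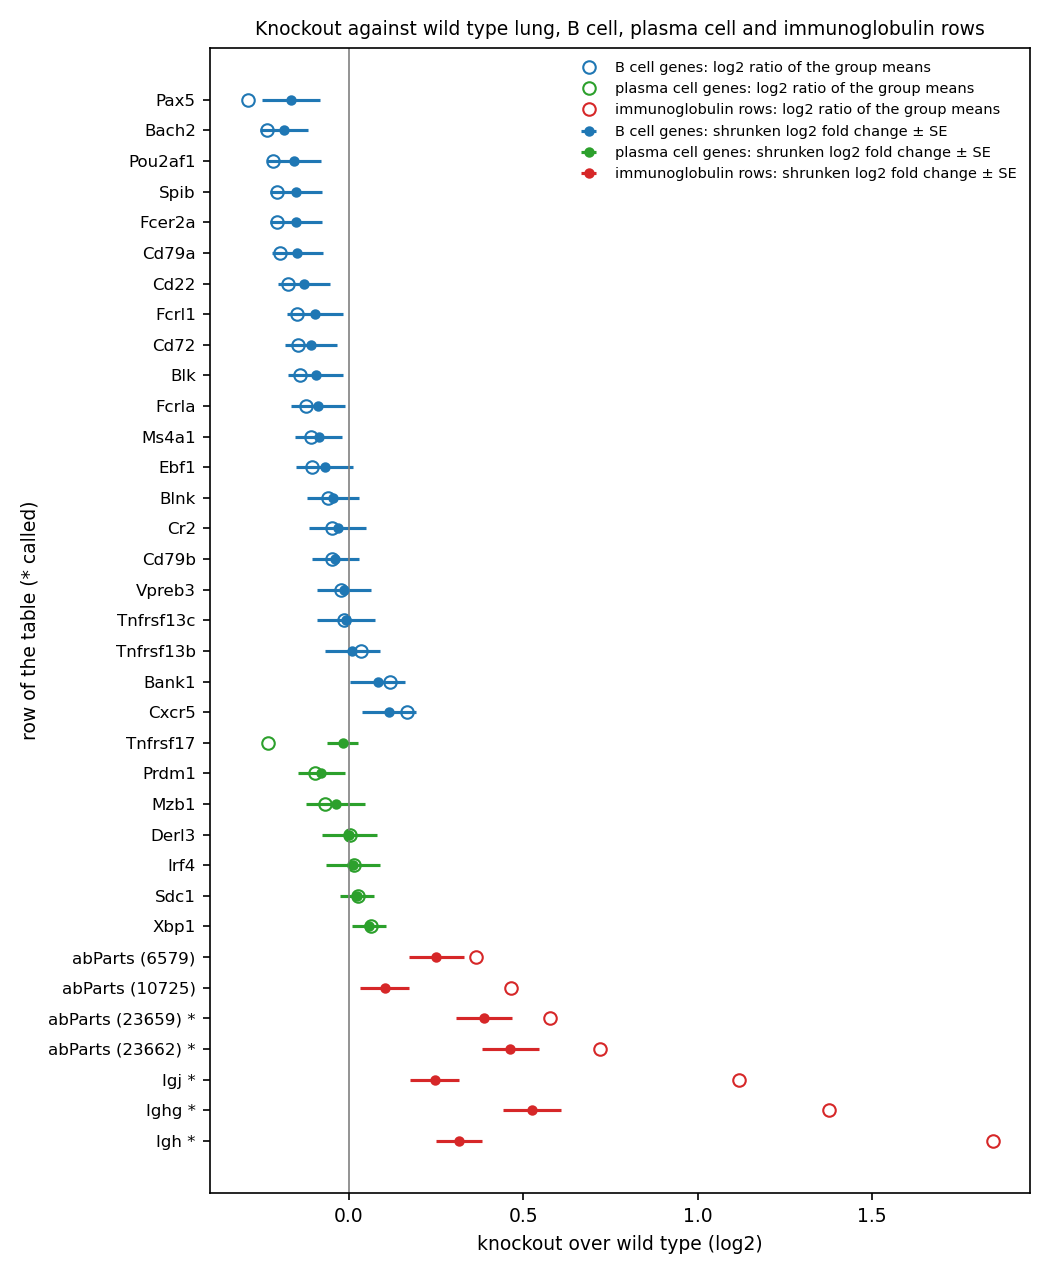
Knockout over wild type on a log2 axis for all 35 rows, grouped as B cell genes (blue), plasma cell genes (green) and immunoglobulin rows (red). Filled points are the authors' shrunken log2 fold changes with bars of 1 SE, open circles the log2 ratios of the group means, and asterisks the called rows; the red circles lie between 0.37 and 1.84, and the highest blue one is Cxcr5 at 0.17.

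Together the 7 immunoglobulin rows summed to 24427 normalized counts in wild type and 35761 in knockout, 1.46 times as much. The summed B cell genes stood at 17415 and 16061, a ratio of 0.922. For the plasma cell genes the sums were 20675 and 21126, of which Sdc1 and Xbp1 make up most. Per normalized count of Cd79a, the signalling chain of the B cell receptor, Ighg went from 0.135 to 0.402 and Igj from 1.008 to 2.51. Per normalized count of Mzb1, a chaperone that plasma cells use to assemble antibody, Igj went from 6.08 to 13.8. These quotients are of group means and carry no error. They also take up the lower knockout mean of Cd79a itself, a ratio of 0.873, against 0.968 for Cd79b. Ighg and Igj were both called higher, while the abParts rows that were not called had ratios of 1.29 and 1.38.

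Markers of neutrophils moved beside these rows. All 4 neutrophil markers, S100a8, S100a9, Cxcr2 and Csf3r, were called higher, against 0.592% of all tested rows. Their sum was 5318 normalized counts in wild type and 8919 in knockout in the authors' deposited table. The 4 red cell markers that were found had higher knockout means, with sums of 81592 and 89362, while 50.6% of all tested rows had a lower one. Of these 4, 0 were called by DESeq2, against 1.09% of all tested rows. At an unadjusted p under 0.05 there were 0, against 4.43% of all tested rows higher and 4.04% lower. Of 15 T cell markers, 9 had a lower knockout mean, against 50.6% of all tested rows, with sums of 7754 and 7460. None of the T cell markers was called by DESeq2. Lck and Cd2 were lower at an unadjusted p under 0.05, as were 4.04% of all tested rows. None of these markers was at 0 in both genotypes. Their part in the differences of B cell and immunoglobulin rows was not tested.

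**Figure D2:**
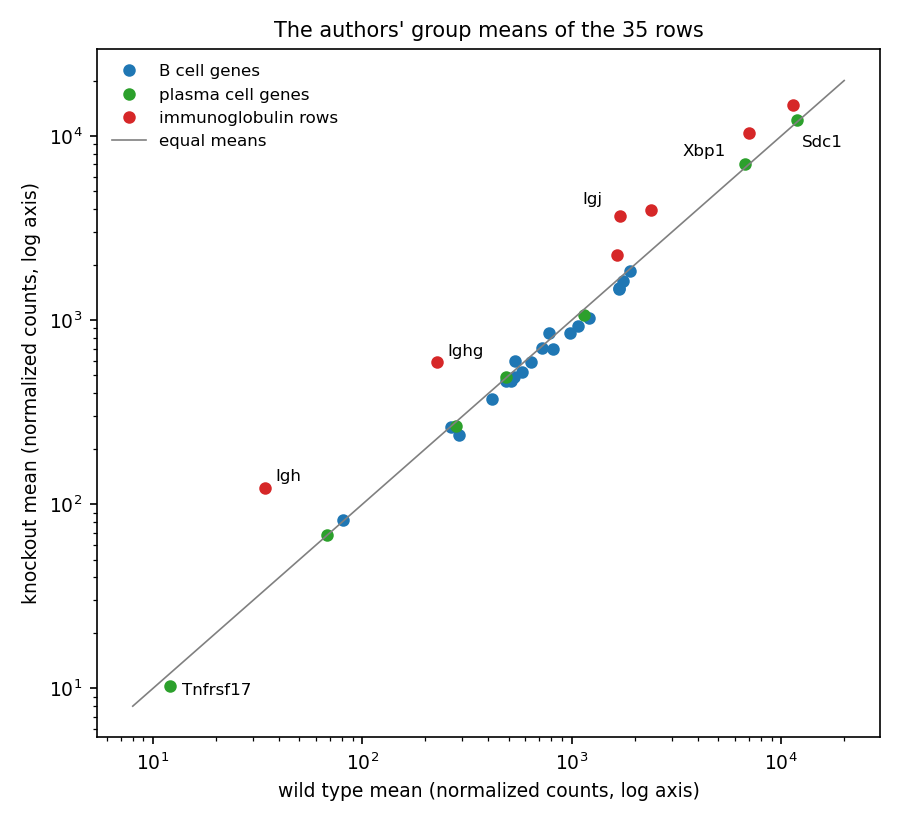
The authors' mean of each of the 35 rows in wild type (x axis) and knockout (y axis), in normalized counts on log axes, with the line of equal means. The 7 immunoglobulin rows (red) lie above the line, from Igh at 34.3 and 123 to the largest abParts row at 11433 and 14725, while B cell genes (blue) and plasma cell genes (green) lie along it.

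Among the heavy chain rows, Ighg had the smallest p of all members. Its symbol is that of the gamma constant region of IgG, a class made after switching. Its means were 227 normalized counts in wild type and 590 in knockout in the authors' deposited table, 2.59-fold higher. On the shrunken log2 scale the difference was 0.53 ± 0.083 (SE; adjusted p = 2.08e-07). Igh, a row named only for the heavy chain locus, had the largest ratio and the lowest level of the immunoglobulin rows. It went from 34.3 to 123 normalized counts, 3.59-fold higher, or 0.32 ± 0.066 (SE) when shrunken on the log2 scale (adjusted p = 0.000501 in the authors' deposited table).

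The values of single libraries could be derived for Igh, whose means are printed to 6 decimals and could each be written in only 1 way as whole reads times 3 fixed steps. Libraries are called A, B and C within a genotype and cannot be tied to a sample. The wild type libraries held 37, 43 and 22 reads of Igh, and the knockout libraries 173, 68 and 129. After division by the size factors these were 34.3 ± 11.1 normalized counts in wild type and 123 ± 55.2 in knockout (SD, n = 3 each). The lowest knockout library, at 66.6, lay above the highest wild type library, at 42.7, so the groups did not overlap. An exact two-sided permutation test gave p = 0.1, the smallest that 3 against 3 allows. The share of all rows whose groups do not overlap was not derived, so the lack of overlap is a description only. Among the knockout libraries B was lowest and A highest. The log2 ratio of 1.84 ranged from 1.49 to 2.14 when each library was left out in turn.

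**Figure D3:**
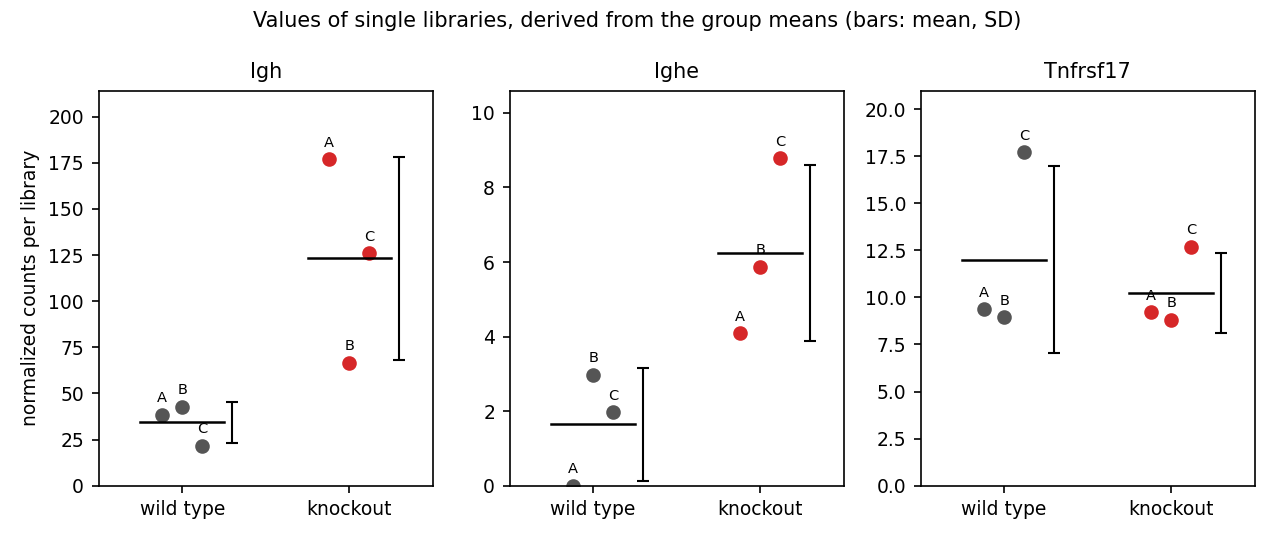
Normalized counts of single libraries (A, B and C within each genotype, y axis from 0) for Igh, Ighe and Tnfrsf17, derived from the group means, with horizontal lines at the mean and error bars of 1 SD. For Igh the knockout libraries lie at 177, 66.6 and 126, above the wild type libraries at 38.5, 42.7 and 21.7, while those of Tnfrsf17 overlap.

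Igj is the joining chain that links secreted IgA and IgM into polymers, and it lies on chromosome 5 from 88519809 to 88527891 (mm10, minus strand, listed as Jchain). In the authors' deposited table its mean rose 2.17-fold, from 1693 to 3672 normalized counts. Shrunken on the log2 scale this was 0.25 ± 0.071 (SE), and the adjusted p of 0.0464 lay just under the threshold. With p-values adjusted over every row that has one, the adjusted p was 0.0562 and the call ended. The log2 ratio of 1.12 was the highest of the 8166 tested rows with a mean of at least 1000 normalized counts, a rank given as a description. Shrinkage kept 0.221 of that log2 ratio, against a median of 0.767 over all tested rows. Among the B cell genes the share kept had a median of 0.714. Shrinkage takes more from rows that have few reads or vary more between libraries, and the libraries of Igj could not be derived at its level.

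The 4 abParts rows have no coordinates in the table, but their cluster numbers fall between genes that can be placed on mm10. Clusters 23659 and 23662 are numbered before Rpia on chromosome 6, which lies beside the kappa light chain locus. Cluster 6579 stands between Tmem121 and Adam6b on chromosome 12, as do Ighg and Igh, with 30 annotated heavy chain genes. Cluster 10725 stands between Hira and Lamp3 on chromosome 16, with 12 annotated lambda light chain genes. This places the rows by number only, and which segments each row covers is not given in the sources used here. Antibody gene segments resemble each other, so reads could be split between rows by a counting rule that is also not given.

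The pair of abParts rows numbered before Rpia rose. Cluster 23662 had means of 2402 normalized counts in wild type and 3955 in knockout in the authors' deposited table, 1.65-fold higher. Shrunken on the log2 scale this was 0.46 ± 0.081 (SE; adjusted p = 7.78e-06). Cluster 23659 went from 7001 to 10436, 1.49-fold higher, at 0.39 ± 0.079 (SE) and an adjusted p of 0.000371 in that deposited table. Shrinkage kept 0.643 and 0.673 of their log2 ratios, more than of that of Igj.

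The abParts rows numbered in the heavy chain and lambda intervals did not pass the test. Cluster 6579, the highest of all member rows, had means of 11433 and 14725 normalized counts in the authors' deposited table. The shrunken log2 value was 0.25 ± 0.079 (SE; unadjusted p = 0.00138, adjusted p = 0.0854). Cluster 10725 had means of 1637 and 2260, a ratio of 1.38, with an adjusted p of 0.821 in the same deposited table. Its shrunken value of 0.10 had a 95% interval from -0.04 to 0.24, and shrinkage kept 0.221 of the log2 ratio. Whether the rows numbered before Rpia differ in their change from cluster 10725 was not tested.

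Rows numbered beside these are no members and were looked at after the data were seen. Igh-A_(1g2), cluster 6578, had means of 7948 and 11569 normalized counts (unadjusted p = 0.0188, adjusted p = 0.4) in the authors' deposited table. Ighe, the constant region of IgE, had 0, 3 and 2 reads in the wild type libraries and 4, 6 and 9 in knockout. These groups did not overlap, with an exact two-sided permutation p of 0.1, the smallest possible, and DESeq2 gave an unadjusted p of 0.105. For Ighe too this is a description, without the share of all rows whose groups do not overlap. The row mFLJ00385, cluster 6583, had means of 45.1 and 116 and no p-value in the deposited table. Its wild type libraries held 27, 85 and 23 reads, so library B held most of them, while the knockout mean allowed 23 sets of reads. M19910, numbered after cluster 23662, had means of 10.3 and 17.1 (adjusted p = 0.904 in the authors' deposited table).

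The share of all tested rows with a ratio of means at least that of the lowest immunoglobulin row was 3.08%. All 7 immunoglobulin rows are in that share by construction, and the lowest of them is cluster 6579.

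**Figure D4:**
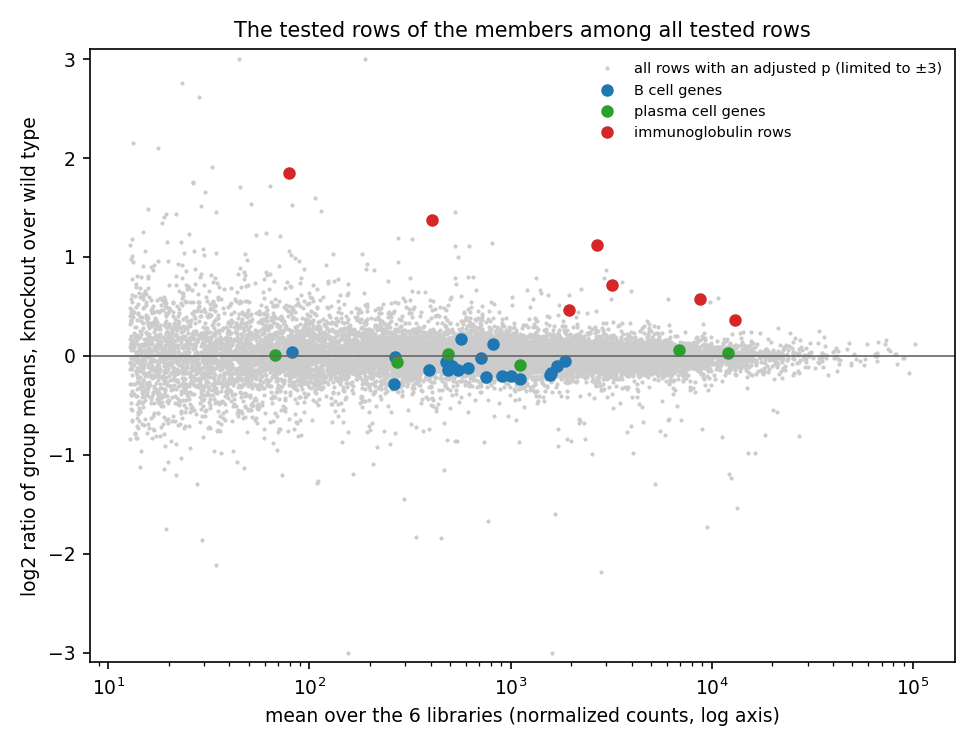
Log2 of the knockout mean divided by the wild type mean, plotted against the mean over the 6 libraries in normalized counts (log axis) for all tested rows (grey, limited to ±3) and the tested members. The immunoglobulin rows (red) lie at the upper edge of the cloud, with Igj at 1.12 and a mean of 2683; B cell genes (blue) and plasma cell genes (green) lie within it.

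B cell genes had lower means in knockout for 18 of 21 rows, against 50.6% of all tested rows, and none was called. Their ratios ran from 0.818 for Pax5 to 1.12 for Cxcr5. Genes of 1 cell type share the libraries they are measured in, so their directions are not independent.

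The transcription regulators had the lowest median log2 ratio among the role groups, -0.22, with all 5 means lower and 4 of the 6 unadjusted p-values under 0.05. Bach2, a repressor that holds back the plasma cell programme, had means of 1208 and 1028 normalized counts in the authors' deposited table. The shrunken log2 value was -0.19 ± 0.069 (SE; unadjusted p = 0.00692, adjusted p = 0.235). Pax5, which maintains B cell identity, had 289 and 236, a ratio of 0.818 with an adjusted p of 0.586 in the deposited table. Pou2af1, the coactivator of octamer-binding factors, had 812 and 699 (adjusted p = 0.547 in the same table). Spib, an Ets family factor, stood at 977 and 847 (adjusted p = 0.573 in the authors' deposited table). Ebf1, which acts with Pax5 in early B cells, had 531 and 493 (adjusted p = 0.970 there).

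Of the B cell receptor chains and adaptors, 4 of 5 had a lower knockout mean, with a median log2 ratio of -0.06. Cd79a had means of 1679 and 1466 normalized counts (unadjusted p = 0.0428, adjusted p = 0.557) as deposited by the authors. Its partner Cd79b had 1897 and 1836 (adjusted p = 0.994 in the deposited table). The 95% intervals of the shrunken log2 fold changes were -0.29 to -0.0048 for Cd79a and -0.17 to 0.09 for Cd79b. The Src family kinase Blk had 577 and 524, and the adaptor Blnk 487 and 467 normalized counts. Bank1, a scaffold of receptor signalling, had a higher knockout mean, 849 against 782 (adjusted p = 0.929 in the authors' deposited table).

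All 7 genes in the group of surface receptors, coreceptors and related proteins had lower knockout means, with a median log2 ratio of -0.14. Fcer2a, the low-affinity IgE receptor CD23 of mature B cells, had means of 1074 and 932 normalized counts (unadjusted p = 0.0405, adjusted p = 0.547 in the authors' deposited table). Cd22, an inhibitory lectin, had 1681 and 1491, and Ms4a1 (CD20) 1756 and 1631. Cd72, another inhibitory receptor, stood at 514 and 465, and the complement receptor Cr2 at 492 and 476. Fcrl1 and Fcrla, members of the Fc receptor-like family, had 414 and 374, and 642 and 590. Adjusted p-values of these 6 lay between 0.700 and 0.997 in the authors' deposited table.

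The chemokine and survival factor receptors had 2 of 3 means higher in knockout. Cxcr5, which draws B cells to follicles, had the highest ratio of the B cell genes, with 537 and 603 normalized counts. The shrunken log2 value was 0.12 ± 0.078 (SE; adjusted p = 0.812 in the authors' deposited table). Tnfrsf13c, the main receptor for the survival factor BAFF, had 266 and 264. Tnfrsf13b (TACI), which binds BAFF and APRIL, had 80.5 and 82.5 normalized counts, and Vpreb3, a protein related to the surrogate light chain, had 720 and 709. The adjusted p-values of Tnfrsf13c, Tnfrsf13b and Vpreb3 were 0.998, 0.997 and 0.997 there.

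Of the plasma cell genes, the 3 regulators did not pass the test. Irf4, which starts the switch to secretion, had means of 485 and 490 normalized counts, with 0.997 as adjusted p in the authors' deposited table. Prdm1, the repressor Blimp-1, which many other cells also make, had 1146 and 1071 (adjusted p = 0.910 in the deposited table). Xbp1, which expands the secretory pathway, had 6734 and 7039 (adjusted p = 0.899 in the same table). The 95% interval of its shrunken log2 fold change ran from -0.04 to 0.15.

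The secretory helpers and surface proteins of plasma cells did not pass the test either. Mzb1 had means of 278 and 266 normalized counts, with a 95% interval of the shrunken log2 fold change from -0.20 to 0.13. Derl3, of the degradation machinery of the endoplasmic reticulum, had 67.4 and 67.6, and Sdc1 had 11952 and 12181. Their adjusted p-values were 0.997 for Mzb1 and Sdc1 and 0.9997 for Derl3 in the authors' deposited table. Tnfrsf17 (BCMA), a survival receptor of plasma cells, was too low for an adjusted p. It had 9, 9 and 18 reads in the wild type libraries and 9, 9 and 13 in knockout. The groups overlapped, and an exact two-sided permutation test of the normalized counts gave p = 0.6. The log2 ratio of Tnfrsf17 was -0.23 and turned to 0.16 without wild type library C.

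Genes around antibody production, from lists outside the members, gave 0 calls by DESeq2, against 1.09% of all tested rows. Among 22 secretory pathway genes, such as Hspa5 and Hsp90b1, 18 had a higher knockout mean, while 50.6% of all tested rows had a lower one. The median log2 ratio of the 22 genes was 0.05, and 0 had an unadjusted p under 0.05. Of 9 genes of antibody transport and Fc receptors, 4 were higher and 2 lower at an unadjusted p under 0.05. Over all tested rows 4.43% were higher and 4.04% lower at that threshold. Pigr, the epithelial receptor that carries polymeric IgA and IgM with their joining chain into secretions, had means of 4204 and 5375 normalized counts. The ratio was 1.28 (unadjusted p = 0.00311, adjusted p = 0.149 in the authors' deposited table). Fcamr, a receptor for IgA and IgM, had 60.8 and 99.6 (adjusted p = 0.167 in the deposited table), and Faim3, the IgM receptor of B cells, 989 and 785 (adjusted p = 0.237). Fcer1g, the signalling chain shared by activating Fc receptors, had 1070 and 1330 (adjusted p = 0.338 in the authors' deposited table).

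Among 13 survival factors, chemokines and lymphoid tissue genes, 2 were higher and 2 lower at an unadjusted p under 0.05. The shares over all tested rows were 4.43% higher and 4.04% lower. Cxcl13, the ligand of Cxcr5, had means of 146 and 227 normalized counts, a ratio of 1.56. Its unadjusted p was 0.00108 and its adjusted p 0.0739 in the authors' deposited table. Tnfsf13b, which encodes BAFF, had 659 and 767 (adjusted p = 0.376 in the deposited table). Il6, a cytokine that supports plasma cells, had 64.7 and 29.4 (adjusted p = 0.124), and Ccr7, a homing receptor of lymphocytes, 1035 and 868 (adjusted p = 0.410 in the same table).

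Of 20 further B cell receptor signalling genes, 1 was higher and 2 lower at an unadjusted p under 0.05. The shares over all tested rows were again 4.43% higher and 4.04% lower. Cd38, an ectoenzyme of B cells and other cells, had means of 3236 and 2564 normalized counts, with 0.0716 as adjusted p in the authors' deposited table. Pik3ap1, an adaptor that links the receptor to PI3 kinase, had 1837 and 2046 (adjusted p = 0.356 in the deposited table). Of 12 further transcription factors 11 had a lower knockout mean, against 50.6% of all tested rows. Foxo1, at 3790 and 3329, and Klf2, at 7837 and 6614, had an unadjusted p under 0.05 (adjusted p = 0.277 and 0.560 in the authors' deposited table). The means of Foxo1 and Klf2 lay above those of all 21 B cell genes, and which cells supplied these transcripts was not tested.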

How the data were processed

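Whole lung RNA was sequenced in 6 libraries as paired reads of 50 bases from a TruSeq v2 kit with 500 ng of RNA, per the labels' protocols. The build mm10 and the tools STAR 2.5.1b, Bowtie2, bedtools, SAMtools and DESeq2 are listed without roles, per the submitters' processing notes. Neither counting rule nor strand use is given in the sources used here. Per the file headers, the authors deposited group means of normalized counts (a signal), a shrunken log2 fold change with its SE, a Wald score, and p-values and adjusted p-values. The deposited means showed that a positive sign is higher in knockout.

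No count model was fitted, since counts of libraries are not in the table used here. Lists were described by counts and medians. Relative size factors, 0.961 to 1.02 in wild type and 0.977 to 1.03 in knockout, were derived from the group means (Python 3.11.15, scipy 1.17.1). Each of the 4901 low means of wild type and 4877 of knockout (at most 40) gave exactly 1 set of whole reads within the printed rounding, as did both means of Igh and the wild type mean of mFLJ00385. The means of Derl3 and Tnfrsf13b and the knockout mean of mFLJ00385, printed to 4 or 5 decimals, allowed 2 to 23 sets and were not solved. On simulated wild type means up to 40, 4734 of 4768 had 1 set, as did 198 of 200 between 100 and 130 printed to 6 decimals, and all of these were right. Total read depth is not given, and the summed normalized means are printed in its place. Coordinates and exon lengths are from GENCODE M21, with 29 members placed.

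Members and lists were chosen with earlier results of these data known. Named are all members, called context genes, and up to 4 per context list by the smallest unadjusted p under 0.05, apart from some that are not reported here. Alternatives were the threshold, the adjustment, a filter on the mean, a pseudocount of 1, the shrunken value, centring, summed abParts rows and the group of Igj.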

Additional observations from a re-analysis of the deposited data

How the results depend on the processing

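Of 33 recomputed group results, 30 kept their direction and stayed near the value reported, namely within 1.5 times for counts or within the group's median SE for medians. Some of these could not change. No B cell gene or immunoglobulin row had a mean under 50, so the filter on the mean left their medians as they were. Counts of 0 called could not rise at an adjusted p under 0.01. Centring shifted each median only by the -0.00131 of all tested rows, far less than any group's median SE. A pseudocount of 1 could also hardly move medians at means this high. The median of the immunoglobulin rows was 0.32 with the shrunken log2 fold change and 1.25 with the abParts rows summed to 1 row, in place of 0.72. Counted with the plasma cell genes, Igj was the 1 called member there. The count of called immunoglobulin rows was 6 at an adjusted p under 0.1 and 4 under 0.01, and Igj was the one lost when every row with a p-value was adjusted. Adding Igh-A_(1g2) to the immunoglobulin rows, chosen after the data were seen, gave a median of 0.65. Leaving out a library was possible only where reads could be derived, an alternative also named after the data were seen. For Igh the log2 ratio ranged from 1.49 to 2.14. For Tnfrsf17 it ranged from -0.41 to 0.16, the positive value being without wild type library C. No leave-one-out value of the group medians was run, since most members were too high to be derived, and no test of summed abParts rows exists. No paired analysis was possible because the labels give no shared replicate numbers and the table holds no libraries.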

Other observations

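Several genes of B cell precursors were near the lower limit of the table. Vpreb1, part of the surrogate light chain of pre-B cells, had 14, 17 and 12 reads in the wild type libraries and 6, 6 and 11 in the knockout libraries. The groups did not overlap in normalized counts, with an exact two-sided permutation p of 0.1, the smallest possible, and an unadjusted DESeq2 p of 0.132. Rag1, which cuts antibody and T cell receptor genes for joining, had 4 reads in each wild type library and 8, 5 and 9 in knockout. These groups did not overlap either (exact two-sided permutation p = 0.1), and the unadjusted p of DESeq2 was 0.303. The share of all rows without overlap was not derived, so the low reads of Vpreb1 and Rag1 are a description only. Igll1, the other part of the surrogate light chain, had 3, 4 and 3 reads against 4, 2 and 3, and Dntt, which adds bases at the joints, 28, 15 and 20 against 16, 14 and 21. Cd93, a receptor of early B cells that endothelium also makes, had means of 24171 normalized counts in wild type and 20728 in knockout in the authors' deposited table (unadjusted p = 0.0141, adjusted p = 0.347).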
